A study of Mus musculus with 4 samples.

Results

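The 7 genes described here encode enzymes that make or use citrulline, ornithine and arginine: Cps1, Otc, Oat, Aldh18a1, Ass1, Asl and Arg2. They were taken by symbol from the 31053 genes of the count matrices, and each was found. The set was chosen by the levels of Cps1 and Otc, which lead the stem-like cells of these same libraries, so the levels over cell types below are a description and carry no test. Counts came from single tdTomato-positive (TOM+) cells of mouse duodenal crypts, the pockets of the small intestinal lining that hold stem, Paneth and young secretory cells. All mice carried R26RTom, a red reporter that Cre recombinase switches on, and a Cre driven from Atoh1, the transcription factor of the secretory lineage, so the sort favoured cells with a history of Atoh1 activity. The WT group was labelled Atoh1CreER-T2;R26RTom and the APC-KO group Atoh1Cre;Apcfl/fl;R26RTom, while the series description gives the inducible Cre for both. Apc restrains Wnt signalling, and its floxed alleles were present in the second group only. All mice received 2 doses of tamoxifen at 1 mg/mL, 24 h apart, and crypt cells were taken 12 h after the last dose. Each genotype had 2 libraries, with no animal, age, sex or batch given for a library, so p-values measure the spread between these samples, which may be technical.

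The urea cycle in liver turns ammonia into urea. In the mitochondrion, carbamoyl phosphate synthetase (Cps1) makes carbamoyl phosphate from ammonia, and ornithine transcarbamylase (Otc) joins it to ornithine to give citrulline. In the small intestine the ornithine comes largely from glutamine and proline through pyrroline-5-carboxylate, made by Aldh18a1 from glutamate and turned into ornithine by ornithine aminotransferase (Oat). Citrulline is then released for arginine synthesis in the kidney or used locally by argininosuccinate synthase (Ass1) and lyase (Asl), and the mitochondrial arginase Arg2 splits arginine into ornithine and urea.

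The deposited per-cell tables kept 4814 and 3821 cells of the WT libraries and 356 and 6243 cells of the APC-KO libraries, with 12 cell type names. Kept cells held 24677647, 21003179, 3009636 and 27285079 UMIs (unique molecular identifiers, 1 per captured transcript), with the libraries in the order WT 1, WT 2, APC-KO 1 and APC-KO 2, kept below. APC-KO 1 stood apart: its kept cells held 5.15% of the UMIs of its matrix, against 37.6% to 50.3% in the others, and it had 13 cells named ISC, 11 named ENTERO-PRO and 5 named SEC-PRO. Where leaving it out changed a call or a direction, both values are given. Between 1 and 8 barcodes were shared by a pair of libraries. Apc itself was at 87.2, 77.9, 88.1 and 88.1 CPM (UMIs of a gene per 1000000 UMIs) in all kept cells, and the 3′ tags do not check the deletion. ISC cells carried the stem markers, at a summed level of 3470 to 5245 CPM, against 59 to 1315 CPM in the other 11 types. ENTERO-PRO had the highest summed enterocyte markers, 8596 to 16349 CPM, with Lgr5 at 0 in 3 of its 4 libraries. EC and NON-EC carried the endocrine markers, at 66368 to 86747 and 14809 to 45941 CPM, and EC had fewer enterocyte markers than ENTERO-PRO, at 633 to 966 CPM. EC is thus used here only as the deposited name of an endocrine-marker type.

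The RefSeq promoter table (GRCm38.p6) matched 4 members: Otc, Oat, Aldh18a1 and Ass1. Its windows run from 250 bases before to 50 bases after the start that RefSeq gives the gene, which for Ass1 lies downstream of the GENCODE start given below, and 3 are shown because Otc and Oat shared their 2 leading types while Ass1 led elsewhere. They lie, for Otc, at chrX:10252055-10252354 on the plus strand, for Oat at chr7:132576349-132576648 on the minus strand and for Ass1 at chr2:31470020-31470319 on the plus strand, each written 5′ to 3′. Capitals mark matches to CANCTG on either strand, the E-box letters of the ATOH1 type.
Otc: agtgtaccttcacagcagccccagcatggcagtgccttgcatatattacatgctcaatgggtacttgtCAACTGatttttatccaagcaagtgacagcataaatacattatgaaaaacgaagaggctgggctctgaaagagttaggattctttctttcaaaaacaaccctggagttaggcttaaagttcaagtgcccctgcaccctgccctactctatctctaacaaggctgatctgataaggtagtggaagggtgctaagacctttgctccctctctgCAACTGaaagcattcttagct
Oat: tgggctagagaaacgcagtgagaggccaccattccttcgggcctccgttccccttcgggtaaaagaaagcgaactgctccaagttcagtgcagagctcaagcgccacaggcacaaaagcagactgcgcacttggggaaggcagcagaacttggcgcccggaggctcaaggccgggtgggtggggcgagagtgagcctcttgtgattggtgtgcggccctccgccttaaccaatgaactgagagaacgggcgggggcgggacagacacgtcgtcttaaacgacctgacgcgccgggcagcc
Ass1: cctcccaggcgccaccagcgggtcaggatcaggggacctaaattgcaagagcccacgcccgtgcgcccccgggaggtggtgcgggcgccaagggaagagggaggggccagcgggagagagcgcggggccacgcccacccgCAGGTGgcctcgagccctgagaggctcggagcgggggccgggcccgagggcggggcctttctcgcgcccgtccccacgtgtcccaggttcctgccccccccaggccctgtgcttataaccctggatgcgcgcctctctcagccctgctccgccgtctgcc
The windows differed in composition. Otc had 44.3% G or C and 1 CpG, Oat 61.7% and 22, and Ass1 74.0% and 27, while the medians over all 32851 promoters of the table were 52.7% and 7. The fourth window, that of Aldh18a1, had 58.3% and 23. CANCTG was found at 2 places in the Otc window and once each in those of Ass1 and Aldh18a1, and 51.4% of all promoters held it. None of the 4 windows held the letters searched for HNF4 (CAAAGTCCA), HNF1, CDX (TTTATNG), TCF (CTTTGAT), C/EBP (TTGCNNAA), the amino acid response element (TTGCATCA) or a TATA box (TATAAA), which 0.0396% to 13.6% of all promoters held.

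Cps1 lies on chromosome 1 (67123026 to 67231259, plus strand, GRCm38). Its level was highest in ISC in each of the 4 libraries, at 768 and 843 CPM in WT against 646 and 632 CPM in APC-KO. These values rest on 2632, 1188, 49 and 3781 UMIs, or 4.58, 5.21, 3.77 and 3.04 per cell. ENTERO-PRO came second, at 396, 384, 239 and 309 CPM in the same library order. SEC-PRO followed at 116 and 109 CPM in WT. No other type exceeded 100 CPM in a WT library, and GOBLET was lowest at 3.70 and 7.08 CPM. The WT mean in ISC was 805 ± 52.9 CPM (SD, n = 2) and in GOBLET 5.39 ± 2.39 CPM, a ratio of 149. Of the 11 pairs of neighbouring types in this order, 3 overlapped between their WT libraries, and the first 4 types did not overlap their neighbours.

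At the level of cells, most ISC cells carried Cps1. A Cps1 UMI was found in 95.7% and 94.3% of WT ISC cells and in 84.6% and 89.2% of APC-KO ISC cells. In GOBLET cells, mature secretory cells at the other end of the order, the shares were 1.84%, 2.96%, 7.14% and 7.42%. Median depths were 6249, 6579.5, 6309 and 4515 UMIs in ISC and 4904, 5252, 6906 and 3624 UMIs in GOBLET. With each cell thinned to 2000 UMIs the ISC shares were 79.1%, 75.1%, 70.0% and 68.5%, from 555, 221, 10 and 1212 cells deep enough, and the GOBLET shares were 1.84%, 2.96%, 3.70% and 5.49%, from 163, 270, 27 and 255 cells. ISC cells made up 11.9% and 5.97% of the kept WT cells and held 65.2% and 53.0% of their Cps1 UMIs, as the plot of UMI shares shows.

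**Figure D1:**
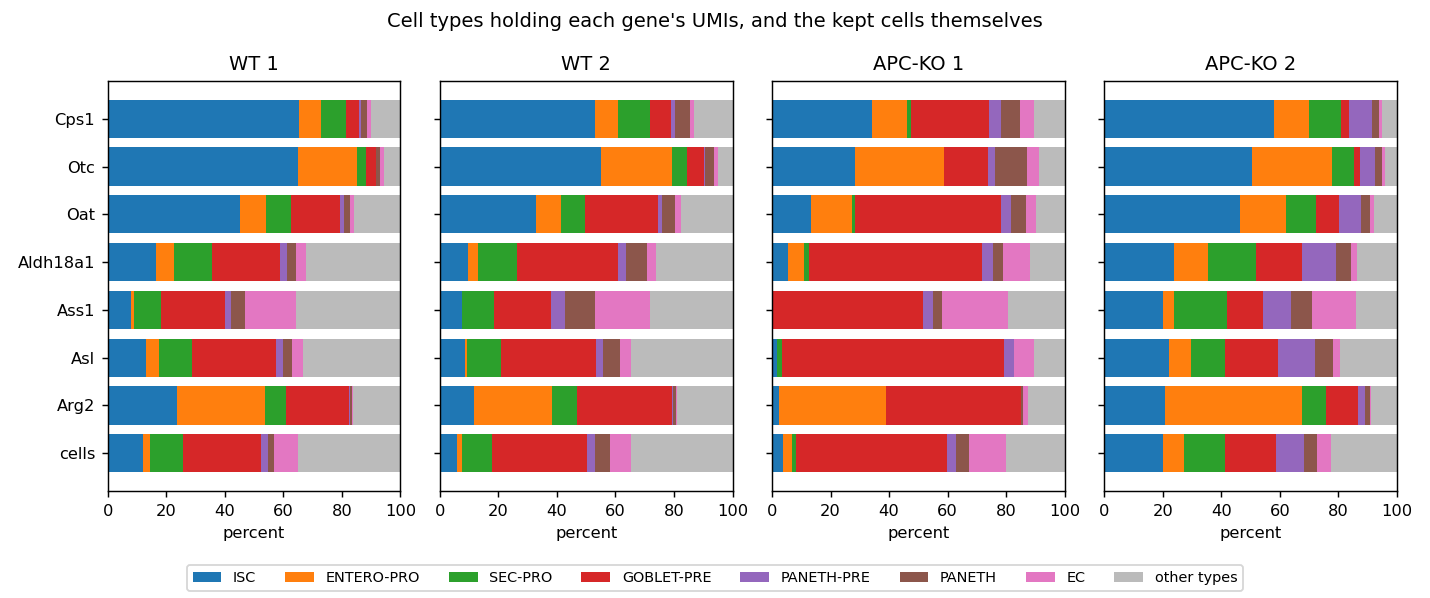
Percent of the UMIs of each gene, and of the kept cells (lowest bar), by cell type, 1 panel per library. ISC and ENTERO-PRO hold most Cps1 and Otc UMIs in both WT libraries, while GOBLET-PRE makes up 51.7% of the cells of APC-KO 1.

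Otc lies on the X chromosome (10252305 to 10321024, plus strand). Unlike Cps1 it was highest in ENTERO-PRO, at 313 and 306 CPM in WT against 197 and 218 CPM in APC-KO. ISC came second at 225 and 226 CPM in WT against 171 and 169 CPM in APC-KO. These 2 types held 85.3% and 79.4% of the Otc UMIs of the kept WT cells. Every other type was at or below 15.2 CPM in WT. Of the 11 neighbouring pairs 9 overlapped, all of them below ISC, so no neighbours there could be told apart. An Otc UMI was found in 85.3% and 86.2% of WT ENTERO-PRO cells and in 68.2% and 64.0% of WT ISC cells, against 4.91% and 1.48% of WT GOBLET cells, and after thinning in 46.1% and 42.2%, in 35.5% and 32.6%, and in 1.84% and 0.741%.

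Oat, on chromosome 7 (132557478 to 132576398, minus strand, a span that touches the annotated Fgfr2 on the same strand), had the same 2 leading types. In ISC its level was 687, 902, 660 and 499 CPM, in the library order used above. In ENTERO-PRO it was 614, 712, 731 and 401 CPM, which overlapped ISC in WT. Outside these types it did not fall to the low levels of Otc: WT values in the other 10 types ran from 36.0 to 149 CPM. Of the 11 neighbouring pairs, 6 overlapped, ISC and ENTERO-PRO among them.

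Arg2, on chromosome 12 (79130777 to 79156301, plus strand, overlapped by Vti1b and Gm48780 on the minus strand), was highest in ENTERO-PRO. Its level there was 449 and 615 CPM in WT against 647 and 276 CPM in APC-KO. ISC and GOBLET followed, at 78.8 and 89.4 CPM and at 69.0 and 58.7 CPM in WT. EC (3.99 and 6.41 CPM) and PANETH (5.42 and 3.86 CPM) were among the lowest. GOBLET cells, which were lowest for Cps1, followed ISC for Arg2, and ENTERO-PRO, ISC and GOBLET did not overlap in WT.

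Aldh18a1, on chromosome 19 (40550257 to 40588463, minus strand), spread over the types. It was highest in EEC-PRE at 84.8 and 113 CPM in WT and next in ENTERO-PRO at 96.1 and 91.2 CPM, which lies within that range. ISC had 58.7 and 77.3 CPM and GOBLET, the lowest, 17.3 and 7.08 CPM.

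The 2 enzymes that turn citrulline into arginine did not share the pattern of the citrulline-making ones. Ass1, on chromosome 2 (31470207 to 31520672, plus strand), was highest in EC in WT, at 29.5 and 28.9 CPM, with 25.6 and 33.0 CPM in APC-KO, from 37, 27, 7 and 29 UMIs. NON-EC followed at 26.5 and 14.5 CPM in WT and had 28.6 and 11.1 CPM in APC-KO, so in APC-KO 1 it lay above EC, on 2 UMIs. In ENTERO-PRO, where Otc and Arg2 peaked, Ass1 had 2 UMIs in WT 1 and 0 in WT 2, and 3 UMIs there would be 3.95 and 6.51 CPM. Asl, on chromosome 5 (130011258 to 130029247, minus strand), had the narrowest range of the members: the WT means ran from 13.6 CPM in PANETH to 38.5 CPM in TUFT, 10 of 11 neighbouring pairs overlapped, and all kept cells had 23.6, 25.9, 19.3 and 25.7 CPM.

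**Figure D2:**
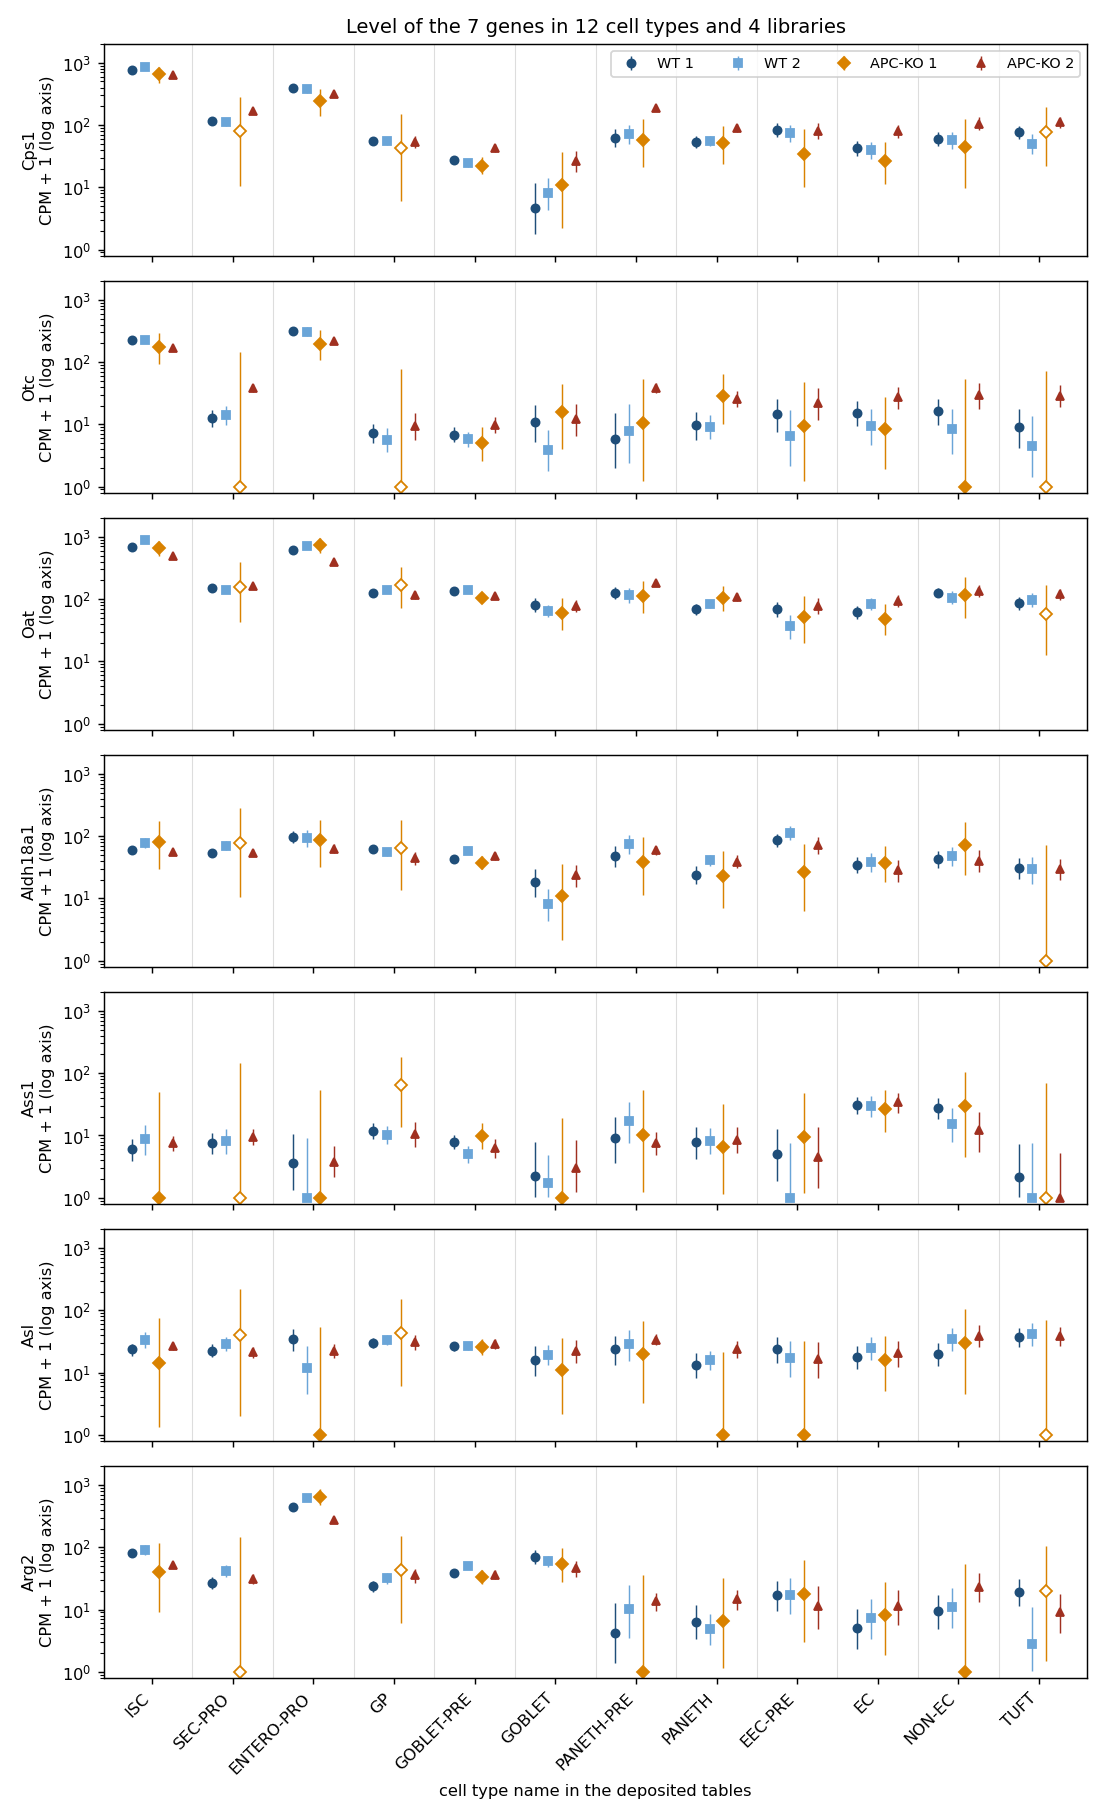
Level of each gene (CPM + 1, log axis) in the 12 types, with 1 point per library and bars for the exact Poisson 95% interval of its UMI count; open points have under 10 cells. Cps1 peaks in ISC and Otc and Arg2 in ENTERO-PRO in each library with at least 10 cells, whereas Ass1 is highest in EC in both WT libraries and Asl spans the narrowest range.

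The intervals drawn there cover counting error only. In single-cell data RNA released by broken cells reaches all droplets, and its level was read from barcodes with 1 to 50 UMIs. Cps1 was at 284, 260, 179 and 288 CPM in those barcodes, Otc at 81.3, 72.7, 64.1 and 93.1, Oat at 337, 389, 200 and 364, and Arg2 at 80.4, 83.8, 80.6 and 92.4. Aldh18a1 was at 46.5 to 77.1, Asl at 19.9 to 27.8 and Ass1 at 4.52 to 11.1 CPM. ISC cells were above the barcode level for Cps1 (271% and 325% of it in WT), Otc (276% and 310%) and Oat (204% and 232%). For Arg2 they were near it in WT (98.0% and 107%) and under it in APC-KO (49.1% and 56.1%). In WT GOBLET cells Cps1 stood at 1.30% and 2.73% of the barcode level and Arg2 at 85.9% and 70.1%, so these genes did not keep 1 ratio there. In GOBLET cells the level of each of these genes, that of Arg2 included, lay under the barcode level. Lying under it does not tell RNA of the cells from free RNA, and the part of each was not tested.

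Across the 12 types in WT, Otc and Oat were the most alike of the members (Pearson r = 0.89 on log2(CPM + 1)), followed by Cps1 with Otc (0.82) and Cps1 with Oat (0.80). Otc and Arg2 had r = 0.71, while Ass1 and Arg2 had -0.50. Over the 9 types with at least 10 cells in each library, r in APC-KO was 0.91, 0.90, 0.90, 0.62 and -0.73 for these pairs. Over the same 9 types r in WT was 0.91, 0.86, 0.81, 0.73 and -0.71. The points share libraries, depth and the clustering of the same cells, so these are descriptions. Among 6059 genes with a mean of at least 20 CPM, those most like Cps1 were Cluh (r = 0.947), which encodes an RNA-binding protein of messages for mitochondrial proteins, Adk (0.942), adenosine kinase, Ndufaf4 (0.937), an assembly factor of respiratory complex I, Mthfd1 (0.933), a folate enzyme, and C1qbp (0.929), a mitochondrial matrix protein. Their levels in ISC were 76.0 to 384 CPM (WT means). Those most like Otc were Dmbt1 (0.976), a secreted mucosal glycoprotein, Nlrp6 (0.969), an inflammasome sensor, Clca4b (0.959), Aadac (0.944), a lipid-handling esterase, and Slc4a4 (0.931), a bicarbonate cotransporter. Each of these 5 was higher in ENTERO-PRO than in ISC, and Dmbt1 was at 1641 CPM in the first and 1088 CPM in the second (WT means). Ranked by Spearman's rho instead, 1 of the 5 for Cps1 and 2 of the 5 for Otc were among the 20 highest.

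The rest of the pathway was followed through 47 genes in 5 lists. Of 4 genes of the urea cycle and its supply that reached 20 CPM in some WT type, 2 were highest in ENTERO-PRO and 1 in ISC. Slc25a15, the mitochondrial ornithine carrier, was at 75.1 and 86.9 CPM in ENTERO-PRO and at 59.8 and 71.7 CPM in ISC of WT. Slc25a13, an aspartate and glutamate carrier, was at 30.6 and 24.1 CPM in ISC. Nags, whose product N-acetylglutamate activates Cps1, had its highest WT mean in ENTERO-PRO, 33.2 CPM, and is named after its values were seen. Arg1, the cytosolic arginase, went the other way and was highest in EC at 82.2 and 62.0 CPM. For amino acid transport, 4 of 8 genes were highest in ENTERO-PRO (Slc7a7, Slc7a9, Slc3a1 and Slc3a2, named after their values were seen), but the 3 with the highest mean over all kept WT cells were highest in other types: Slc38a2 in GP, Slc1a5 in PANETH-PRE and Slc7a1 in SEC-PRO. For glutamine, glutamate and proline, 3 of 8 were highest in ISC, 2 in EC, and 1 each in ENTERO-PRO, NON-EC and PANETH. Glud1, glutamate dehydrogenase, was at 806 and 845 CPM in EC, and Glul, glutamine synthetase, at 262 and 265 CPM in NON-EC. For polyamine, creatine and nitric oxide genes that use arginine or ornithine, 2 of 10 were highest in ISC and 4 in NON-EC; Odc1, ornithine decarboxylase, was at 294 and 327 CPM in EC, and its regulators Oaz1 and Azin1 were highest in NON-EC. Of 5 pyrimidine genes, among them Cad, which makes carbamoyl phosphate outside mitochondria, 2 were highest in ISC, and Uck2, Umps and Cad in PANETH-PRE, NON-EC and SEC-PRO. No list was thus highest in 1 type throughout.

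The second comparison asked how the 7 genes differ between the genotypes within a cell type. UMIs were summed per library and type and tested with edgeR, with adjustment over all genes. In 46 planned member tests, over all kept cells, ISC, the stem and progenitor pool (ISC, SEC-PRO and ENTERO-PRO cells summed), EC, GOBLET-PRE and GOBLET and 1 interaction, 0 members passed an adjusted p of 0.05, and the lowest adjusted p was 0.0828. By unadjusted p under 0.05, 1 member passed in ISC and 1 in the interaction, and the DESeq2 Wald test called 0 of those it gave an adjusted p. It gave none for 9302 of 9792 genes in ISC, Otc and Arg2 among them. In ISC, 3.57% of all 9792 genes tested were called.

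In ISC, Cps1, Otc, Oat and Arg2 were each lower in both APC-KO libraries than in both WT libraries. Such a fall without overlap was found for 26.2% of all genes tested in ISC. Arg2 was at 78.8 and 89.4 CPM in WT against 39.6 and 51.8 CPM in APC-KO (log2 fold change -0.64, SE 0.22, adjusted p = 0.0828), with 3 UMIs in APC-KO 1. Without that library it was -0.62 with an adjusted p of 0.0133, which passes, where 786 of 10724 genes were called. The log2 fold change was -0.31 for Cps1 (SE 0.29, adjusted p = 0.761), -0.36 for Otc (SE 0.27, adjusted p = 0.651) and -0.47 for Oat (SE 0.30, adjusted p = 0.557). Their approximate 95% intervals, -0.88 to 0.27, -0.88 to 0.17 and -1.05 to 0.11, include 0. Stem markers were lower in the same libraries, at 3470 and 3626 CPM against 4057 and 5245 in WT, and the mitochondrial share in ISC was 2.40% in APC-KO 1 against 5.46% to 6.04% in the others; their part in the result was not tested. The median member change in ISC was -0.31, beside -0.01 over all genes tested.

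ENTERO-PRO, fitted after the data were seen, gave a like direction for the citrulline-making pair. Otc was at 313 and 306 CPM in WT against 197 and 218 CPM in APC-KO (log2 fold change -0.50, SE 0.29, adjusted p = 0.738). For Cps1 it was -0.40 (SE 0.29, adjusted p = 0.779). For Arg2, which peaked here, it was -0.32 (SE 0.37, adjusted p = 0.872), and -0.90 with an adjusted p of 0.0342 without APC-KO 1, where 392 of 7586 genes were called, but 0.27 without APC-KO 2. None is called with all libraries, beside 0.0788% of genes called and 20.4% lower without overlap in this type, Cps1, Otc and Aldh18a1 among them. APC-KO 1 had 14 Otc and 17 Cps1 UMIs here, and its ENTERO-PRO cells had 16349 CPM of enterocyte and 2179 CPM of goblet markers, against 8596 to 9685 and 19826 to 33127 in the other libraries.

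In the pool of stem and progenitor cells Arg2 was not called (log2 fold change 0.51, SE 0.40, adjusted p = 0.682). Its level was 95.5, 122, 284 and 89.5 CPM, so 1 library stood out. That library, APC-KO 1, drew 11 of its 29 pooled cells from ENTERO-PRO, the type with the highest Arg2. The part of this in the result was not tested. Without APC-KO 1 the change was -0.18, and without APC-KO 2 it was 1.48. Cps1 (0.03, SE 0.25, adjusted p = 0.990) and Otc (0.19, SE 0.24, adjusted p = 0.824) were not called, beside 0.92% of genes called in the pool.

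Outside the stem and enterocyte progenitor cells the APC-KO libraries often parted for Cps1. APC-KO 2 lay above both WT libraries for Cps1 in 8 of 12 types and for Otc in 10 of 12, and below them in ISC and ENTERO-PRO for both genes and in GP for Cps1. APC-KO 1 lay below both WT libraries for Cps1 in 8 of the 9 types with at least 10 cells, and for Otc in 5 of them, with 3 above (GOBLET, PANETH-PRE and PANETH). In PANETH-PRE, PANETH, EEC-PRE, EC and NON-EC its Cps1 values rest on only 6, 9, 4, 7 and 3 UMIs. Groups without overlap, APC-KO higher, were found for Cps1 and Otc in GOBLET (29.5% of all genes tested), Otc in PANETH-PRE (17.0%), Otc, Oat and Arg2 in PANETH (44.7%) and Arg2 in EC (14.6%). The reverse was found for Oat and Arg2 in GOBLET-PRE (30.6%), Arg2 in GOBLET (14.4%), Aldh18a1 and Asl in EEC-PRE (30.2%) and Asl in the pool (30.5%). APC-KO 1 had 0 Asl UMIs in EEC-PRE and 2 in the pool. Some of these members had too few UMIs to be tested and lie outside the genes of the share. They are Cps1 in GOBLET, Otc in PANETH-PRE, Arg2 in PANETH and EC, and Asl in EEC-PRE. In EC, Cps1 was at 41.5, 38.5, 25.6 and 78.6 CPM (log2 fold change 0.70, SE 0.35, adjusted p = 0.625) with 0.0% of genes called (729 at an unadjusted p under 0.05, 6 by DESeq2). It was 1.00 with an adjusted p of 0.0117 once APC-KO 1 was left out, where 405 of 9390 genes were called, and -0.57 once APC-KO 2 was left out. The GOBLET-PRE level was 26.0, 23.3, 21.3 and 42.2 CPM, a change of 0.55 (SE 0.27, adjusted p = 0.638), with 0.00974% of genes called. Ass1 in EC, its leading type, had a value of 0.14 (SE 0.31, adjusted p = 0.930), and Oat in GOBLET-PRE -0.20 (SE 0.14, adjusted p = 0.739). In GOBLET, Arg2 had a value of -0.56 (SE 0.28, adjusted p = 0.473; 0.0837% of genes called), and Cps1 and Ass1 had too few UMIs to be tested.

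**Figure D3:**
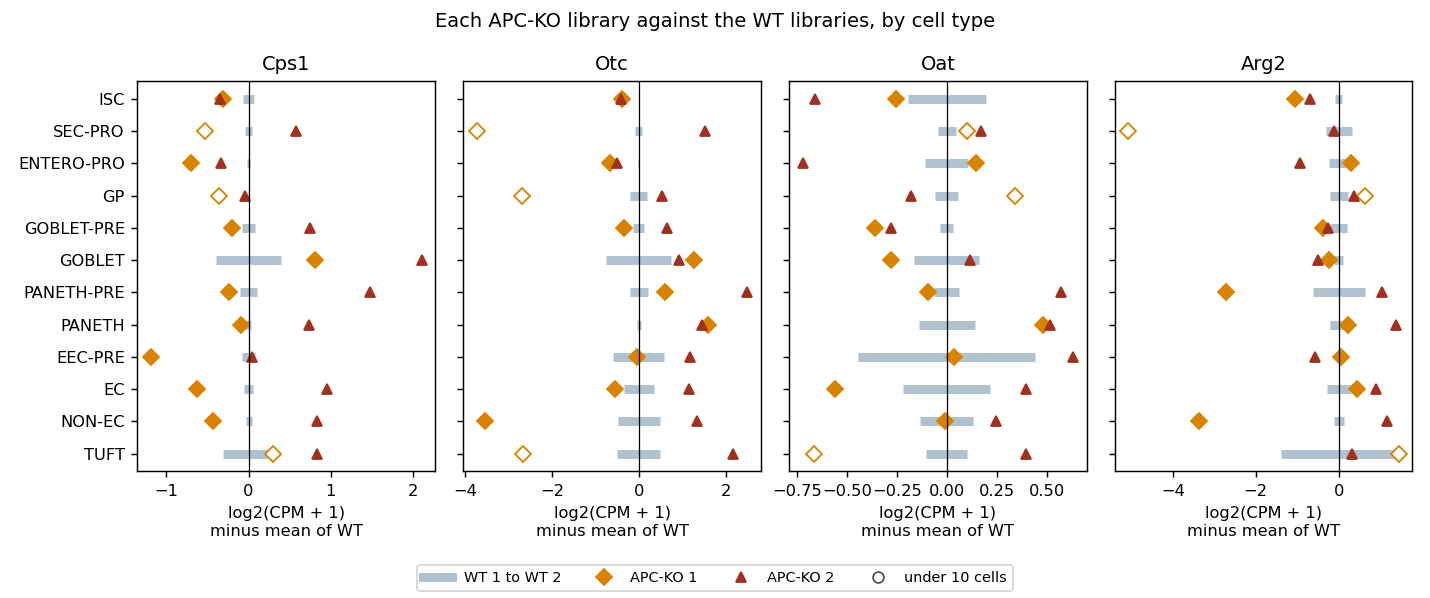
Difference of each APC-KO library from the mean of the WT libraries on the log2(CPM + 1) scale, for 4 genes and 12 types; the blue bar spans the WT libraries and open points have under 10 cells. Both APC-KO libraries lie to the left in ISC for all 4 genes, while in most other types APC-KO 2 lies to the right for Cps1 and Otc and APC-KO 1 to the left for Cps1.

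Whether the genotype difference itself depends on the cell type was tested with an interaction. Between the stem and progenitor pool and GOBLET-PRE the Cps1 differences differed by -0.61 (log2, SE 0.21, adjusted p = 0.280), which is not called, beside 0.633% of genes called. Without APC-KO 1 this was -0.78, and without APC-KO 2 it was -0.07. Arg2 differed by 0.37 (SE 0.19, adjusted p = 0.817), and by 1.61 without APC-KO 2.

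**Figure D4:**
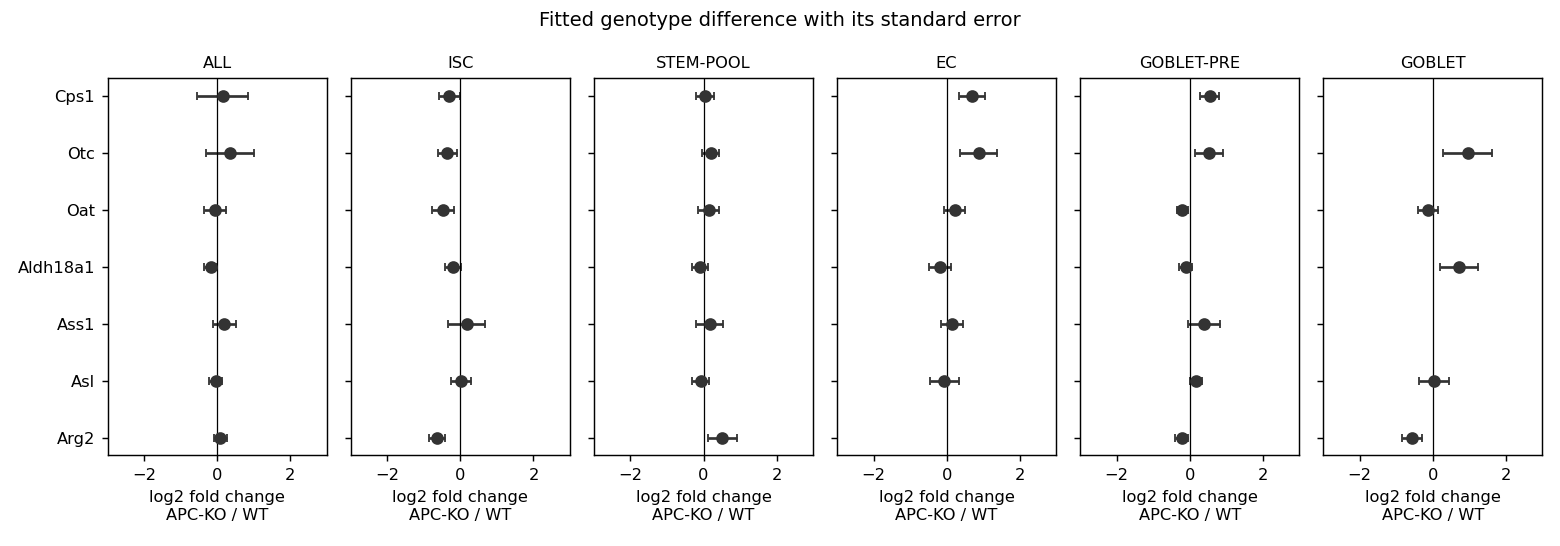
Log2 fold change of APC-KO against WT in the 6 planned fits, for each member tested; points are edgeR estimates and bars 1 standard error. None passes an adjusted p of 0.05, and Arg2 in ISC has the lowest, 0.0828.

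After the data were seen, the Paneth types were fitted too. In PANETH-PRE, Cps1 was at 61.7, 70.9, 56.0 and 186 CPM, and the fit called it higher in APC-KO (log2 fold change 1.16, SE 0.30, adjusted p = 0.0454, with 1.53% of genes called). The groups overlap, and without APC-KO 2 the change was -0.10. The call was lost with any 1 of the 4 libraries left out (adjusted p 0.178 to 0.999). In the same type Otc was at 4.87, 6.86, 9.33 and 37.5 CPM from 3, 3, 1 and 102 UMIs. Between ISC and PANETH-PRE the genotype differences differed by -1.45 for Cps1 (SE 0.28, adjusted p = 1.059e-04) and by -2.84 for Otc (SE 0.50, adjusted p = 6.884e-06), the 2 of 6 members called where 1.52% of genes were. Otc had too few UMIs to be tested in PANETH-PRE alone and entered this fit through ISC, where it is high and by which the set was chosen, so its value is a description. Oat was at -0.87 (SE 0.26, adjusted p = 0.0525). Without APC-KO 2 the values were -0.26 and -1.27, and neither was called then or without either WT library. Without APC-KO 1 both passed, at -1.64 and -2.91, and so did Oat, at -1.0 (adjusted p = 1.966e-04), where 260 of 10515 genes were called. The PANETH-PRE cells of APC-KO 2 had 42791 CPM of Paneth and 1315 CPM of stem markers, against 100229 to 132501 and 448 to 691 in the other libraries, and the part of this in the result was not tested.

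In PANETH, Otc was at 8.81 and 8.21 CPM in WT against 27.6 and 24.9 CPM in APC-KO, from 13, 17, 5 and 46 UMIs. APC-KO was higher without overlap, as were 44.7% of all genes tested in this type, and 1.41% of genes were called. With TMM scaling, edgeR's correction for the make-up of a library, the log2 fold change was 0.87 (SE 0.39, adjusted p = 0.369), and its difference from that in ISC was -1.20 (SE 0.36, adjusted p = 0.0597, 1.44% of genes called). Oat in PANETH had CPM values of 67.8, 82.6, 105 and 107, higher in APC-KO, but a fitted change of -0.12 (SE 0.30), so its direction turned with the scaling, and Cps1 had a ratio of mean CPM of 1.30 and a fitted change of -0.11 (SE 0.28). In EEC-PRE (0.654% of genes called) 0 of the 3 members tested were called, and in NON-EC (0.113%) 0 of 5. By unadjusted p under 0.05 it was 0 and 1. The 1 was Cps1 in NON-EC, at 59.7, 56.7, 42.8 and 105 CPM (log2 fold change 0.79, SE 0.29, adjusted p = 0.397). Without APC-KO 1 that was 0.93 with an adjusted p of 0.0163, where 344 of 8776 genes were called, and without APC-KO 2 it was -0.48. Paneth markers took 537950 and 542376 CPM of WT and 454527 and 340491 CPM of APC-KO PANETH cells.

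Over all kept cells Cps1 was at 163, 107, 47.5 and 238 CPM and Otc at 47.9, 27.5, 15.3 and 73.4 CPM. The fitted changes were 0.15 (SE 0.69) and 0.34 (SE 0.67), each with an adjusted p of 1.0, and 0.0% of genes were called by edgeR, with 495 at an unadjusted p under 0.05 and 23 called by DESeq2. Here the APC-KO libraries held the lowest and the highest value. They also held the lowest and the highest share of ISC cells, 3.65% and 19.9% against 11.9% and 5.97% in WT. With 4 types weighted equally the changes were -0.24 and -0.26. The part of the cell type shares in the values over all kept cells was not tested.

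Of these 47 pathway genes, 2 passed the test in a fit with all libraries and the low-count filter, both in ISC, where of 9 tested genes of arginine and ornithine use 1 was lower and 1 higher. Agmat, which encodes an agmatinase-type enzyme, was at 89.0 and 42.6 CPM in WT against 26.4 and 26.7 CPM in APC-KO (log2 fold change -1.32, SE 0.24, adjusted p = 1.151e-05). Its APC-KO value rests on 2 and 160 UMIs. Sms, spermine synthase, rose from 65.7 and 52.5 to 106 and 97.4 CPM (0.76, SE 0.21, adjusted p = 0.0156). These 2 calls held without APC-KO 1 (adjusted p 3.171e-09 and 6.691e-04) and were lost without WT 1, WT 2 or APC-KO 2, where Sms was at 0.61 to 1.00 and Agmat at -0.57 (without WT 1) to -1.71. DESeq2 gave neither an adjusted p, with log2 fold changes of 0.81 and -1.25. Of the urea cycle, transport and pyrimidine lists 0 genes were called by edgeR in these fits, and in ISC 0 of 5, 0 of 8 and 0 of 5 had an unadjusted p under 0.05. Arg1 in EC was at 82.2, 62.0, 7.32 and 18.2 CPM, and was not called (-2.17, SE 0.36, adjusted p = 0.186). It passed without APC-KO 1 (adjusted p = 9.594e-05), without APC-KO 2 (-3.22, adjusted p = 9.239e-04) and with no filter beyond 1 count (-2.22, adjusted p = 1.958e-07), but not without WT 1 or WT 2 (0.636 and 0.999). The medians of those lists in ISC were 0.18, 0.10 and 0.02.

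Much Cps1 RNA lay outside the kept cells. All kept cells had 901 to 2999 genes and under 7% mitochondrial UMIs. Barcodes with 3000 genes or more, not kept, numbered 1181 and 1226 in WT and 1704 and 681 in APC-KO. They held 45.1% and 54.3% of all Cps1 UMIs of the WT matrices and 72.8% and 24.0% of those of the APC-KO matrices, and kept cells 21.6%, 13.5%, 1.04% and 44.0%. Cps1 in them was at 540 and 574 CPM in WT against 319 and 400 CPM in APC-KO, and Otc at 166, 188, 117 and 156 CPM. Barcodes under 3000 genes but with 7% or more mitochondrial UMIs, among those with at least 1000 UMIs, had 380, 371, 128 and 351 CPM of Cps1. For Cps1 and Otc the libraries were closer over each whole matrix than in kept cells. Cps1 was at 306, 298, 236 and 273 CPM there and Otc at 99.8, 99.1, 93.2 and 101 CPM. Arg2 did not follow. It was at 80.0, 102, 123 and 83.6 CPM over the whole matrices against 46.0, 50.7, 41.9 and 54.4 CPM in kept cells. The deposited names do not cover these barcodes, so no cell type is given for them, and some may hold more than 1 cell.

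**Figure D5:**
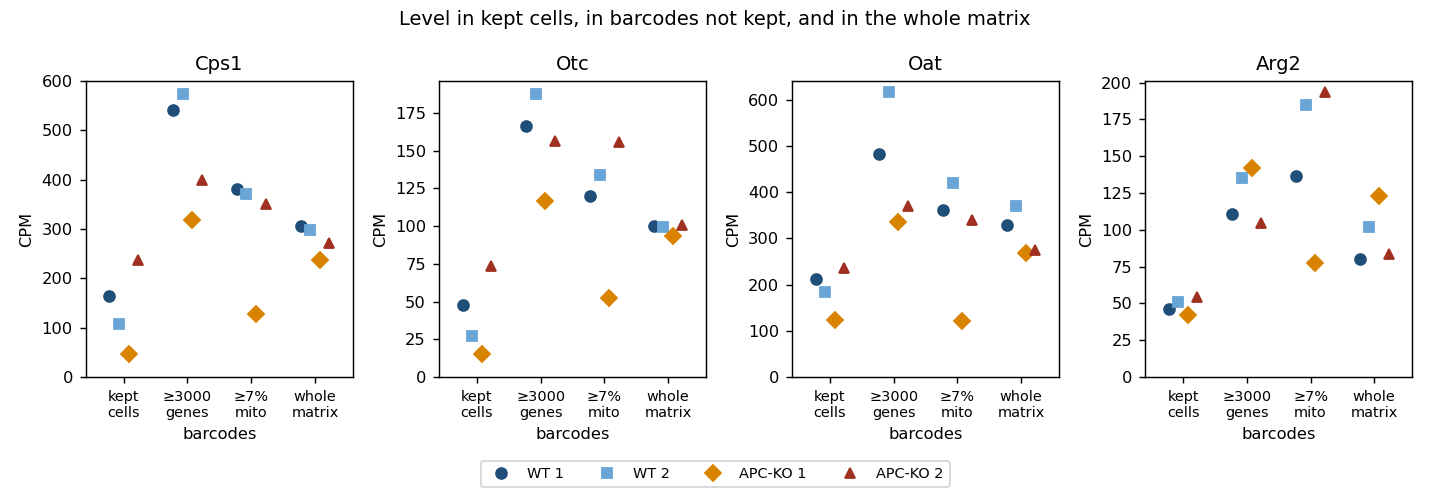
Level (CPM) of 4 genes per library in kept cells, in barcodes not kept with at least 3000 genes, in other barcodes not kept with at least 7% mitochondrial UMIs, and over the whole matrix. For Cps1 the kept cells run from 47.5 to 238 CPM and the whole matrices from 236 to 306 CPM.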

How the data were processed

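Single-cell libraries used the 10x Genomics 3′ v3.1 chemistry, per the labels' protocols. The authors deposited unfiltered matrices of UMI counts per gene and barcode. The submitters' processing notes name Cell Ranger 3.0.2, STAR and mm10. The authors also deposited a table per genotype with each kept cell's UMI and gene counts and its mitochondrial share in percent. Each table also holds the library and cell type names. How cells were filtered, doublets treated and types named is not given in the sources used here, and no doublet caller was run here.

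From the deposited counts, UMIs were summed per library and type over the kept cells. CPM is a gene's UMIs per 1000000 of that sum. The 3′ chemistry tags each transcript once, so no length scaling was used. The genotype test was that of edgeR 4.0.16, run in R 4.3.3 (TMM, filterByExpr, quasi-likelihood test, Benjamini-Hochberg over all genes tested, threshold 0.05). Log2 fold changes are APC-KO over WT. Interactions held the library as a block. Levels over types used no test and like patterns used Pearson's r on log2(CPM + 1). Positions came from GENCODE vM21 by gene ID. DESeq2 1.42.0, limma 3.58.1, other filters, thinning to 2000 UMIs per cell, subtraction of free RNA at 5%, a replicate block and each library left out were alternatives. The fits were tested on simulated data.

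The members and lists were chosen with earlier results of these data known. Genes named were the members, Apc, list genes past the threshold or among the 3 most abundant of a list, and the 5 most like Cps1 and Otc; 2 genes of the lists are not reported here. ENTERO-PRO, PANETH-PRE, PANETH, EEC-PRE and NON-EC fits and 2 interactions with ISC were added after seeing the data. Replicate pairs of 1 group differed beyond sampling noise (chi-square per degree of freedom 57.7 and 53.9), so each library counted once.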

Additional observations from a re-analysis of the deposited data

Results flagged for a closer look

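These values are ratios of the mean CPM of the APC-KO libraries to that of the WT libraries, for types in which both APC-KO libraries lay on the same side of both WT libraries and where another type showed the opposite. Whether the types differ was not tested, except for the interactions given above.

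For Cps1 the ratio was 0.794 in ISC and 0.702 in ENTERO-PRO but 3.27 in GOBLET, where the counts were 3, 10, 2 and 25 UMIs. For Otc it was 0.757 in ISC and 0.669 in ENTERO-PRO, against 2.04 in GOBLET, 3.99 in PANETH-PRE and 3.09 in PANETH. The GOBLET ratio rests on 8, 4, 3 and 11 UMIs, under the free-RNA level. The PANETH-PRE ratio rests on 1 UMI in APC-KO 1 and 102 in APC-KO 2. Oat had 0.729 in ISC and 0.801 in GOBLET-PRE and 1.41 in PANETH, where the TMM-scaled change was -0.12 on the log2 scale. Arg2 had 0.543 in ISC, 0.786 in GOBLET-PRE and 0.772 in GOBLET, against 1.69 in EC and 2.05 in PANETH. In EC and PANETH the Arg2 counts of APC-KO 1 were 2 and 1 UMIs. Paneth, goblet and stem marker levels also differed between libraries in the PANETH types, and their part in these ratios was not tested.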

How the results depend on the processing

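No member passed an adjusted p of 0.05 in a planned fit. Of 365 recomputed values with all libraries kept 0 passed while 31 changed sign (some DESeq2 values had no adjusted p). Of 184 with 1 library left out, 46 changed sign. Passes are not counted for these, since 1 group then holds 1 library.

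Counts of genes called moved more. With DESeq2's Wald test the count went from 0 to 23 in all cells, 350 to 16 in ISC, 102 to 18 in the pool, 0 to 6 in EC, 1 to 38 in GOBLET-PRE and 72 to 0 in the planned interaction; it gave no adjusted p for 9302 of 9792 genes in ISC, 8172 of 11092 in the pool and 4212 of 8690 in EC, which cannot be called. With no filter beyond 1 count it was 21 in all cells, 548 in the pool, 174 in EC, 280 in GOBLET-PRE and 79 in GOBLET, against 5 there. With thinned cells it was 128 in ISC, 314 in the pool, 4 in EC, 15 in GOBLET-PRE and 14 in the interaction. With free RNA subtracted it was 39 in the pool, 0 in GOBLET-PRE, 3 in GOBLET and 29 in the interaction. It was 652 with GP cells added to the pool and 3 in GOBLET without mitochondrial, ribosomal protein and defensin genes. The cause was not tested.

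Over all kept cells the deviations of same-numbered libraries had r = -0.235. This is a single value from 2 libraries per group with unlike cell type shares, so it cannot decide whether replicate numbers pair the libraries. A replicate block gave 4 calls in all cells, 76 in ISC, 110 in GOBLET-PRE and 73 in GOBLET, changed Cps1 in all cells to -0.19, and lost the ISC calls of Agmat (-0.79, adjusted p = 1.0) and Sms (0.88, adjusted p = 0.670). The crossed pairing gave 1 call in all cells, 68 in ISC, 132 in EC and 2 in GOBLET (Cps1 in all cells -0.19); it called Arg1 in EC (adjusted p = 5.212e-07) and lost Sms in ISC (adjusted p = 0.9999).

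With 1 library left out, calls ranged from 0 to 483 in all cells, 29 to 786 in ISC, 18 to 523 in the pool, 0 to 405 in EC, 7 to 64 in GOBLET-PRE, 0 to 21 in GOBLET, 1 to 409 in the planned interaction, 2 to 392 in ENTERO-PRO, 3 to 45 in PANETH-PRE, 0 to 225 in PANETH, 0 to 285 in EEC-PRE, 13 to 344 in NON-EC, 11 to 260 for ISC against PANETH-PRE and 14 to 215 for ISC against PANETH. The lone library of a group is then assumed to vary like the others. Log2 fold changes that turned sign then ranged, for Cps1, from -1.30 to 0.83 in all cells, -0.11 to 0.17 in the pool, -0.57 to 1.00 in EC, -0.043 to 0.84 in GOBLET-PRE, -0.10 to 1.36 in PANETH-PRE and -0.48 to 0.93 in NON-EC. For Otc in all cells they ranged from -1.10 to 0.98, for Arg2 from -0.18 to 1.48 in the pool and -0.90 to 0.27 in ENTERO-PRO, and for Ass1 in EC from -0.11 to 0.21.

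Other turns of sign were Cps1 and Otc in all cells with 4 types weighted equally by limma (-0.24 and -0.26), Cps1 in the pool with cells of at least 2000 UMIs (-0.0037) or thinned (-0.043), Ass1 in EC (-0.076) and Apc in ISC (-0.075), both thinned.

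Without the mitochondrial, ribosomal protein and defensin genes the WT mean levels rose by construction: Cps1 in ISC to 1153, Oat in ISC to 1137, Otc and Arg2 in ENTERO-PRO to 408 and 699, Aldh18a1 in EEC-PRE to 136, Ass1 in EC to 34.3 and Asl in TUFT to 48.9 CPM. Thinning gave 33.7 CPM for Ass1 and 32.6 for Asl, and free RNA subtraction 321 for Otc and 30.1 for Ass1. Single WT libraries gave 768 to 843, 687 to 902, 306 to 313, 449 to 615, 84.8 to 113, 28.9 to 29.5 and 36.4 to 40.6 CPM in that gene order. With Spearman's rho 1 and 2 of the 5 genes like Cps1 and Otc were among the 20 highest, and with 1 WT library 5 were. Depth limits APC-KO 1 most, with 75796 UMIs in ISC.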
